A study of Mus musculus with 2 samples.

Results

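The transcription factor set described here holds 9 of the 32285 genes in the count matrices: Six2, Sall1, Osr1, Eya1, Cited1, Meox1, Pax2, Pax8 and Lhx1. They were taken by exact symbol from the feature tables of both libraries, and all 9 were present in both. The 9 act in sequence while a mouse kidney makes its nephrons. Nephron progenitors are mesenchymal cells that sit over the tips of the branching ureteric bud, where they either renew themselves or receive a Wnt signal and aggregate. The aggregates become epithelial renal vesicles, and these grow through comma-shaped and S-shaped bodies into podocytes, proximal tubule, loop of Henle and distal tubule. Six2, Eya1, Sall1, Osr1, Cited1 and Meox1 are associated with the progenitor state, Pax2 with both progenitors and ureteric epithelium, and Pax8 and Lhx1 with the newly induced nephron. In the mouse the progenitors are used up within days of birth.

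Kidneys were profiled by droplet sequencing of RNA from single nuclei before birth (E18.5) and 3 days after it (P3), with 1 library per age. The E18.5 kidneys were Mycf/f;Mycnf/f (no Cre) on a mixed strain background, that is, with both Myc and Mycn flanked by recombination sites but not deleted. The P3 kidneys were Wild type, with C57BL/6J given as the background in the labels and a mixed background in the study's methods. In each library the kidneys of several animals of both sexes were snap-frozen, thawed and pooled before nuclei were isolated, so nothing could be traced to 1 animal. Age, genotype, background, library and software release therefore changed together and cannot be told apart, and no test between ages was possible. Values below are sums of UMIs (unique molecular identifiers, each standing for 1 captured RNA molecule) with 95% intervals that cover counting error only, since nuclei of 1 library are not replicates.

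After quality limits 21270 nuclei with 77321253 UMIs remained at E18.5 (median 3132.5 per nucleus) and 11765 nuclei with 70055219 UMIs at P3 (median 4534). Both libraries held 69 barcodes in common. Nuclei were clustered with the 9 genes left out of the genes used for clustering, and clusters were named from markers outside the set. A single class at each age, called early nephron-like, carried progenitor and committing-nephron markers: 3146 nuclei at E18.5 (14.8%, 14.3 to 15.3) and 917 at P3 (7.79%, 7.32 to 8.29). Levels are given as CPM (counts per 1000000), the UMIs of a gene over all UMIs of the class. Clusters that could not be named held 32.7% of nuclei at E18.5 and 33.6% at P3.

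This class was named from its 15 markers in these same data, so they describe it and do not test its label. Of the 15 markers, 8 were raised at each age. At E18.5 these were the progenitor markers Crym, Tmem100, Spock2, Uncx, Phf19, Rspo1 and Traf1 and the committing marker Bmper. At P3 they were the progenitor markers Tmem100, Spock2, Gdnf, Uncx and Rspo1 and the committing markers Wnt4, Jag1 and Bmper. Traf1 was at 56.5 CPM at E18.5, against 8.87 CPM in all other nuclei, and at 5.57 CPM at P3. Crym was at 41.2 CPM at E18.5 and 2.79 CPM at P3, below the 7.54 CPM of the other nuclei there. Wnt4 and Jag1 were at 104 and 77.6 CPM at E18.5 and at 357 and 220 CPM at P3. The classes compared between ages below thus differed in their markers, and the part of this in the ratios between ages was not tested for the whole class.

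Promoters are shown for the gene most tied to progenitor renewal, Six2, and for Pax8 and Lhx1. Within the class at E18.5 the sub-clusters highest in Six2 were not those highest in Pax8 and Lhx1. The sequences are the 250 bases before the RefSeq start of each gene on GRCm38.p6, read 5′ to 3′ on the strand of the gene. Six2 lies at chr17:85688255-85688504, Pax8 at chr2:24475600-24475849 and Lhx1 at chr11:84525535-84525784, all on the minus strand. Capitals mark CCAAT (or ATTGG, the same letters on the other strand) and GGGCGG (or CCGCCC).
Six2: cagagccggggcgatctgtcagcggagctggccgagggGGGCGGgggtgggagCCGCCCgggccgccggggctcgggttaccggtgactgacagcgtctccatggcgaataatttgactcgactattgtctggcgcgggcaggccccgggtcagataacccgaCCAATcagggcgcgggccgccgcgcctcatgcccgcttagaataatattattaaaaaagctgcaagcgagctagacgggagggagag
Pax8: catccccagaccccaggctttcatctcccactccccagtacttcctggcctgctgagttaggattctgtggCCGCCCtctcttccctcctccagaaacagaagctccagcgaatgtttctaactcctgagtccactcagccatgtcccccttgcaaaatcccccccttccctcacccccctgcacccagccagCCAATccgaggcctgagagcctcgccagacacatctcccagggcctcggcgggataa
Lhx1: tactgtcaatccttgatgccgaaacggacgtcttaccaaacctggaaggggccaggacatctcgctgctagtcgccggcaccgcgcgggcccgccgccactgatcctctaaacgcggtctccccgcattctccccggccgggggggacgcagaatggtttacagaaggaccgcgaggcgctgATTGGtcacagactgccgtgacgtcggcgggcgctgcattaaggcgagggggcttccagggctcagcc
All 3 held 1 CCAAT, which lay 87 bases before the start in Six2, 57 in Pax8 and, on the opposite strand, 68 in Lhx1. CCAAT was present in 33.8% of 32851 promoters of this length. Of the 6 genes of the set with a promoter entry, 5 had it at 1 or more of their starts, Pax2 being the one without it. Cited1, Sall1 and Pax2 had 3 starts each, so this count by gene does not compare directly with the share by promoter. GGGCGG, found in 32.7% of promoters, occurred 2 times in Six2, 1 time in Pax8 and 0 times in Lhx1. TATAAA (12.4% of promoters), CTTTGA (13.8%) and TCAGGTT (3.49%) had 0 matches in the 3 windows. The windows were rich in G and C, at 64.8% in Six2 and Lhx1 and 60.4% in Pax8 against a median of 52.4%. Osr1, Eya1 and Meox1 had no entry.

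Most of the set was highest in the early nephron-like class at both ages. At E18.5 this held for 7 of the 9 genes, the exceptions being Pax8 and Lhx1, while 6.79% of all genes with enough UMIs had their highest level in that class (20339 genes with at least 10 UMIs). At P3 it also held for 7 of 9, the exceptions being Cited1 and Meox1, against a background of 11.1%. At E18.5 6 of the 9 were at least 2 times higher in the early nephron-like class than in all other nuclei, where 5.14% of genes were that much higher, and 8 of 9 at P3, where 9.20% were.

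**Figure D1:**
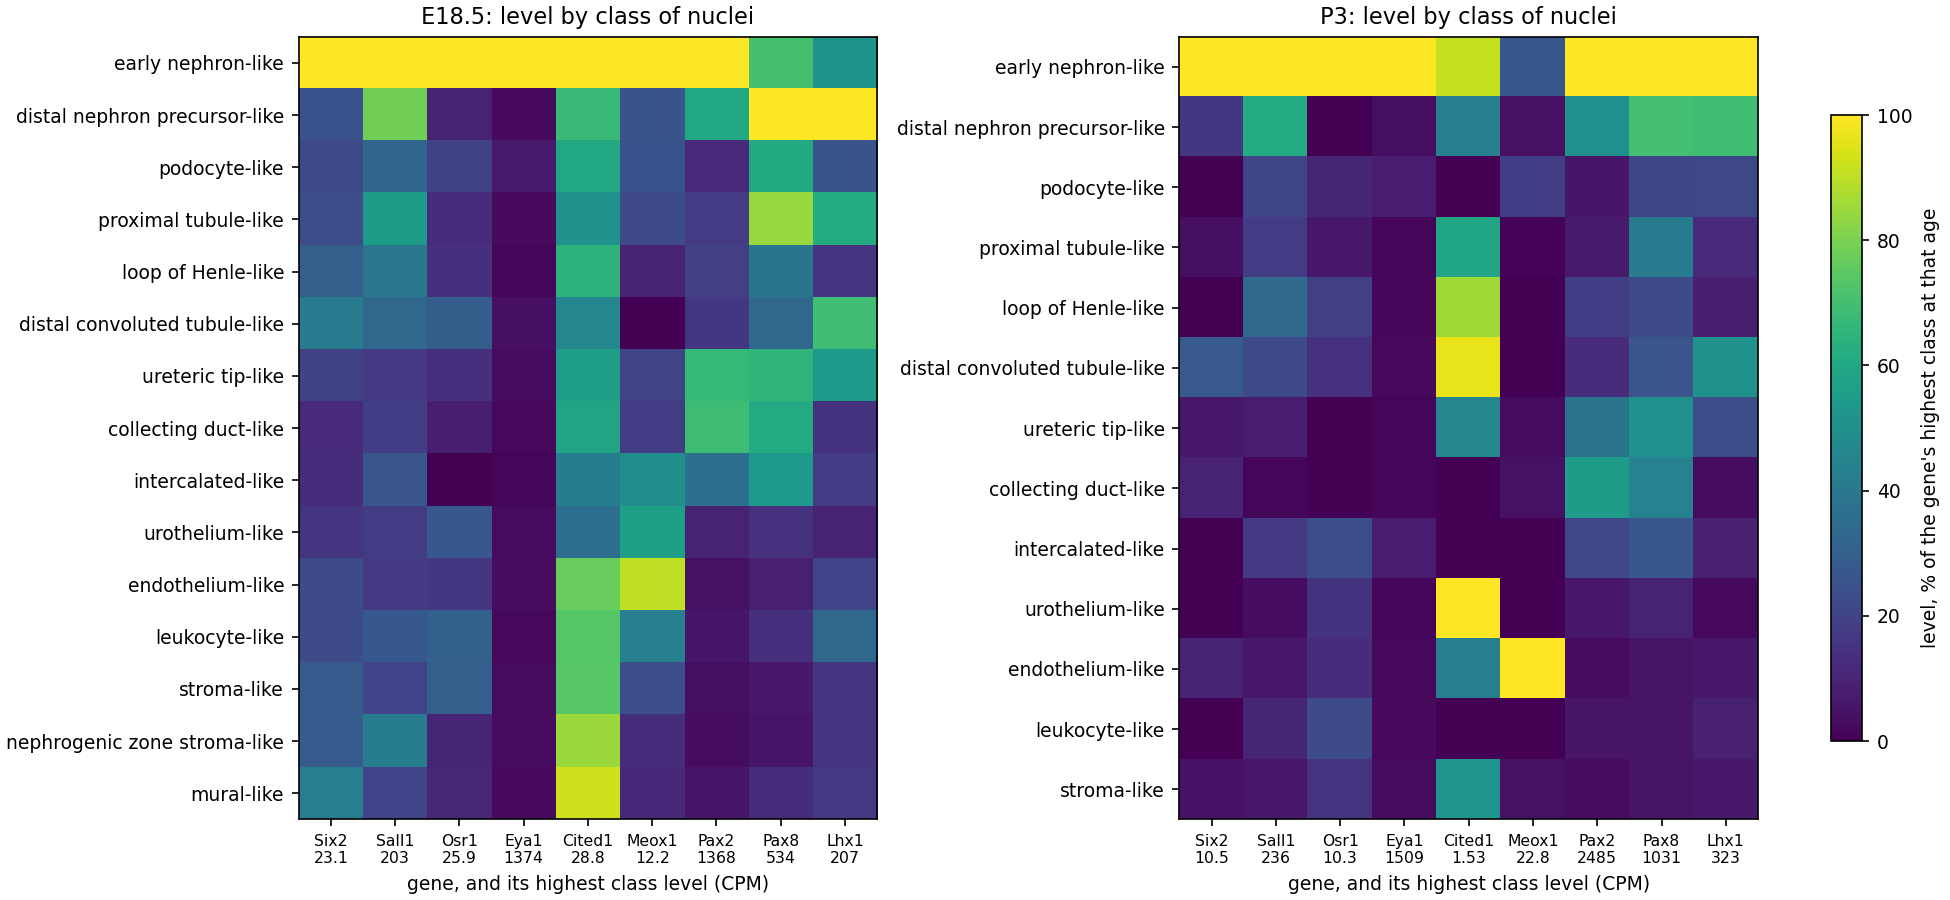
Level of each gene in every named class of at least 50 nuclei at E18.5 (left) and P3 (right), as a percentage of the gene's highest class at that age; the number under each gene is that highest level in CPM. The top row, the early nephron-like class, is at 100% for 7 of 9 genes at each age, and Cited1 at P3 rests on a few UMIs per class.

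Six2, the homeodomain factor that keeps progenitors from differentiating, gave few UMIs. At E18.5 the early nephron-like class held 249 Six2 UMIs (23.1 CPM, 20.3 to 26.1) and at P3 53 (10.5 CPM, 7.90 to 13.8). These were 3.31 times (2.83 to 3.87) the level of all other nuclei at E18.5 and 8.91 times (6.16 to 12.8) at P3. Nuclei that should lack Six2 still gave some: at E18.5 the endothelium-like class was at 5.24 CPM and the leukocyte-like class at 5.32 CPM, and at P3 the endothelium-like class was at 0.990 CPM. Both the level inside the class and the level outside it were lower at P3. The next class at P3, distal convoluted tubule-like, held 2 Six2 UMIs, and its distance from the early nephron-like class was within counting error (0.942 to 30.3 times). With every nucleus thinned to 1000 UMIs, 2.10% of early nephron-like nuclei at E18.5 had a Six2 UMI (1.63 to 2.67) and 0.634% of endothelium-like nuclei did (0.255 to 1.30). Without thinning the early nephron-like share was 7.37% at a median of 3199.5 UMIs and the endothelium-like share 1.62% at a median of 2833.

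Eya1, a transcriptional coactivator and protein phosphatase that works as a partner of Six2 and its relatives, had the highest ratio of the set to all other nuclei, 8.36 times (8.16 to 8.58) at E18.5 and 12.4 times at P3. It was at 1374 CPM (1352 to 1396) at E18.5 and 1509 CPM (1475 to 1543) at P3. The next class, podocyte-like, was at 96.7 CPM at E18.5 and 119 CPM at P3, which left the early nephron-like level 14.2 and 12.7 times higher, a margin far beyond counting error. Early nephron-like nuclei held 57.6% of all Eya1 UMIs at E18.5 and 49.0% at P3. At 1000 UMIs per nucleus 61.2% of them had an Eya1 UMI at E18.5 and 62.7% at P3, against 3.80% and 4.15% of endothelium-like nuclei.

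Sall1, a zinc finger factor needed for the mesenchyme to call in the ureteric bud, was spread more widely. Its level was 203 CPM (194 to 211) in the early nephron-like class at E18.5 and 236 CPM (223 to 250) at P3. The distal nephron precursor-like class followed at 159 and 145 CPM, so that the early nephron-like level was 1.27 times (1.16 to 1.40) and 1.62 times (1.45 to 1.82) higher. Without quality limits on nuclei the early nephron-like class was not the highest for Sall1 at E18.5. Proximal tubule-like nuclei had 112 CPM at E18.5 and 41.9 CPM at P3. The margin of Sall1 over its next class was thus far smaller than that of Eya1.

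Osr1, an odd-skipped zinc finger factor of the intermediate mesoderm and its renal derivatives, was sparse. Its 279 UMIs at E18.5 gave 25.9 CPM (22.9 to 29.1) and its 52 UMIs at P3 gave 10.3 CPM (7.73 to 13.6), which were 3.89 times (3.34 to 4.53) and 5.65 times (4.00 to 7.89) the level in all other nuclei. Leukocyte-like and stroma-like nuclei came next at E18.5 at 7.97 and 7.83 CPM, the first of them on 3 UMIs. A small cluster within the stroma-like class at E18.5, 161 nuclei led by Ebf2, had 40.6 CPM of Osr1 (25.8 to 61.0), an interval that holds the early nephron-like level; this cluster was picked after its value was seen.

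Cited1, a coactivator that marks progenitors before induction, separated the classes poorly. At E18.5 it was at 28.8 CPM (25.7 to 32.2) in the early nephron-like class, 26.7 CPM in the mural-like class and 24.5 CPM in the nephrogenic zone stroma-like class. Neither of these neighbors differed from the early nephron-like class beyond counting error, with ratios of 1.08 (0.679 to 1.82) and 1.18 (an interval from 0.928 up). Endothelium-like nuclei were at 22.1 CPM and leukocyte-like nuclei at 21.3 CPM, and at 1000 UMIs per nucleus 2.97% of early nephron-like and 2.90% of endothelium-like nuclei had a Cited1 UMI. That share lies at the background and cannot be read as expression. At P3 Cited1 had 7 UMIs in the early nephron-like class (1.39 CPM, 0.560 to 2.87) and 61 UMIs in the whole library.

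Meox1, a homeobox gene of somites and of uninduced progenitors, had a different leading class at the later age. It was at 12.2 CPM (10.2 to 14.5) in early nephron-like and 11.1 CPM (7.83 to 15.2) in endothelium-like nuclei at E18.5, a ratio of 1.11 (0.766 to 1.63) that did not separate them. With the mean of per-nucleus CPM in place of summed UMIs another class came first at E18.5. At P3 endothelium-like nuclei were at 22.8 CPM (17.7 to 28.8) on 69 UMIs and early nephron-like nuclei at 6.17 CPM (4.19 to 8.75) on 31 UMIs, a ratio of 3.69 (2.38 to 5.84). Of the 69 UMIs, 68 came from the larger of 2 endothelium-like clusters.

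Pax2, a paired-box factor of both lineages that build the nephron and its duct, was high in early nephron-like nuclei and in ureteric derivatives. It was at 1368 CPM (1346 to 1391) in early nephron-like nuclei at E18.5 and at 2485 CPM (2441 to 2529) at P3. Collecting duct-like nuclei followed at both ages with 944 and 1370 CPM, and ureteric tip-like nuclei had 915 CPM at E18.5. The early nephron-like level was 1.45 times (1.38 to 1.52) that of collecting duct-like nuclei at E18.5 and 1.81 times (1.71 to 1.92) at P3.

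Pax8, the paralog of Pax2 that is present from the renal vesicle on, and Lhx1, the LIM-homeodomain factor needed to pattern that vesicle, led elsewhere at E18.5. Pax8 was at 534 CPM in distal nephron precursor-like, 452 CPM in proximal tubule-like and 379 CPM (368 to 391) in early nephron-like nuclei. Lhx1 was at 207 CPM in distal nephron precursor-like nuclei and at 107 CPM (101 to 114) in early nephron-like nuclei, which were at place 5 of 15 classes. At P3 the early nephron-like class came first for both, with 1031 CPM of Pax8 (1003 to 1059) and 323 CPM of Lhx1 (307 to 339). The distal nephron precursor-like class was then at 723 CPM of Pax8 and 224 CPM of Lhx1, below the early nephron-like class by 1.43 times and 1.44 times (1.32 to 1.58). The first place of Lhx1 at P3 was lost when doublets were removed before clustering and when clusters were built on 20 neighbors in place of 10, which also brought its early nephron-like level to 212 CPM.

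Levels of different genes are set side by side here only per length, and their order depended on which length was used. Per kilobase of gene body, Pax2 came first in early nephron-like nuclei at E18.5 at 16.7 CPM per kb, followed by Lhx1 at 14.8, Sall1 at 12.0 and Eya1 at 9.72. Six2 was at 5.77 and Meox1, the lowest, at 0.726 CPM per kb. At P3 Lhx1 came first at 44.5 CPM per kb, then Pax2 at 30.4, Pax8 at 18.7, Sall1 at 13.9 and Eya1 at 10.7. Per kilobase of exon Pax2 and Eya1 came first at both ages, at 253 and 176 CPM per kb at E18.5 and 459 and 193 CPM per kb at P3, and Lhx1 was at place 5 at E18.5 (26.3 CPM per kb) and place 4 at P3 (79.2 CPM per kb). Eya1 spans 141.282 kb on chromosome 1 (14168954 to 14310235, minus strand) and Six2 3.998 kb on chromosome 17 (85684277 to 85688274, minus strand), so their 1374 and 23.1 CPM at E18.5 do not compare as they stand.

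Within the early nephron-like class the levels of Eya1, Pax8 and Lhx1 varied widely between sub-clusters. The class was split into 10 sub-clusters at E18.5 and 6 at P3, again without the 9 genes, and the sub-clusters were put in order by their mean level of 9 progenitor markers minus that of 6 committing markers (log2 scale). At E18.5 the first 3 places, with 960, 357 and 721 nuclei, had 1942, 1935 and 1671 CPM of Eya1 and 106, 194 and 153 CPM of Pax8. Places 4, 6 and 10, with 264, 74 and 109 nuclei, had 323, 621 and 79.2 CPM of Eya1 and 1356, 1397 and 1187 CPM of Pax8. Places 5, 7, 8 and 9, with 420, 124, 68 and 49 nuclei, had 1013, 240, 132 and 74.6 CPM of Eya1 and 421, 324, 572 and 333 CPM of Pax8. Eya1 was thus highest and Pax8 lowest in the first 3 places, but in places 7 to 9 a low level of Eya1 went with a Pax8 level well under that of places 4, 6 and 10.

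Lhx1 was at 29.9, 24.9 and 45.2 CPM in the first 3 places and at 376, 524 and 694 CPM in places 4, 6 and 10, where Pax8 was also highest. In places 5, 7, 8 and 9 it was at 69.6, 48.1, 48.9 and 28.7 CPM, so that places 7 to 9 were low in both Eya1 and Lhx1. Six2 was highest in the first 3 places, as Eya1 was, with 35.3 CPM (28.9 to 42.7), 36.4 CPM (27.5 to 47.1) and 22.6 CPM (16.9 to 29.6) in the first 3 places and 2.17 CPM (0.263 to 7.86) in place 4. Osr1 was at 40.0, 35.1 and 27.4 CPM in the first 3 places and at 5.44 CPM in place 4. Place 4 rested on 2 Six2 and 5 Osr1 UMIs. The later places, with at most 420 nuclei each, held 0 to 18 Six2 UMIs and their intervals were wide.

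Cited1 and Meox1 were highest at the progenitor end of the same order. Cited1 was at 45.1 CPM (37.8 to 53.4) in place 1 and 15.2 CPM (8.32 to 25.5) in place 4, and Meox1 at 23.9 CPM (18.6 to 30.1) and 2.17 CPM (0.263 to 7.86). In place 1 Cited1 thus stood above the 22.1 CPM (17.4 to 27.7) of endothelium-like nuclei, whose interval overlapped that of the class as a whole. An unnamed E18.5 cluster given under other observations was higher than place 1. Pax2 and Sall1 were highest in place 6: Pax2 was at 1055 CPM in place 1 and 2110 CPM in place 6, and Sall1 at 188 and 360 CPM.

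**Figure D2:**
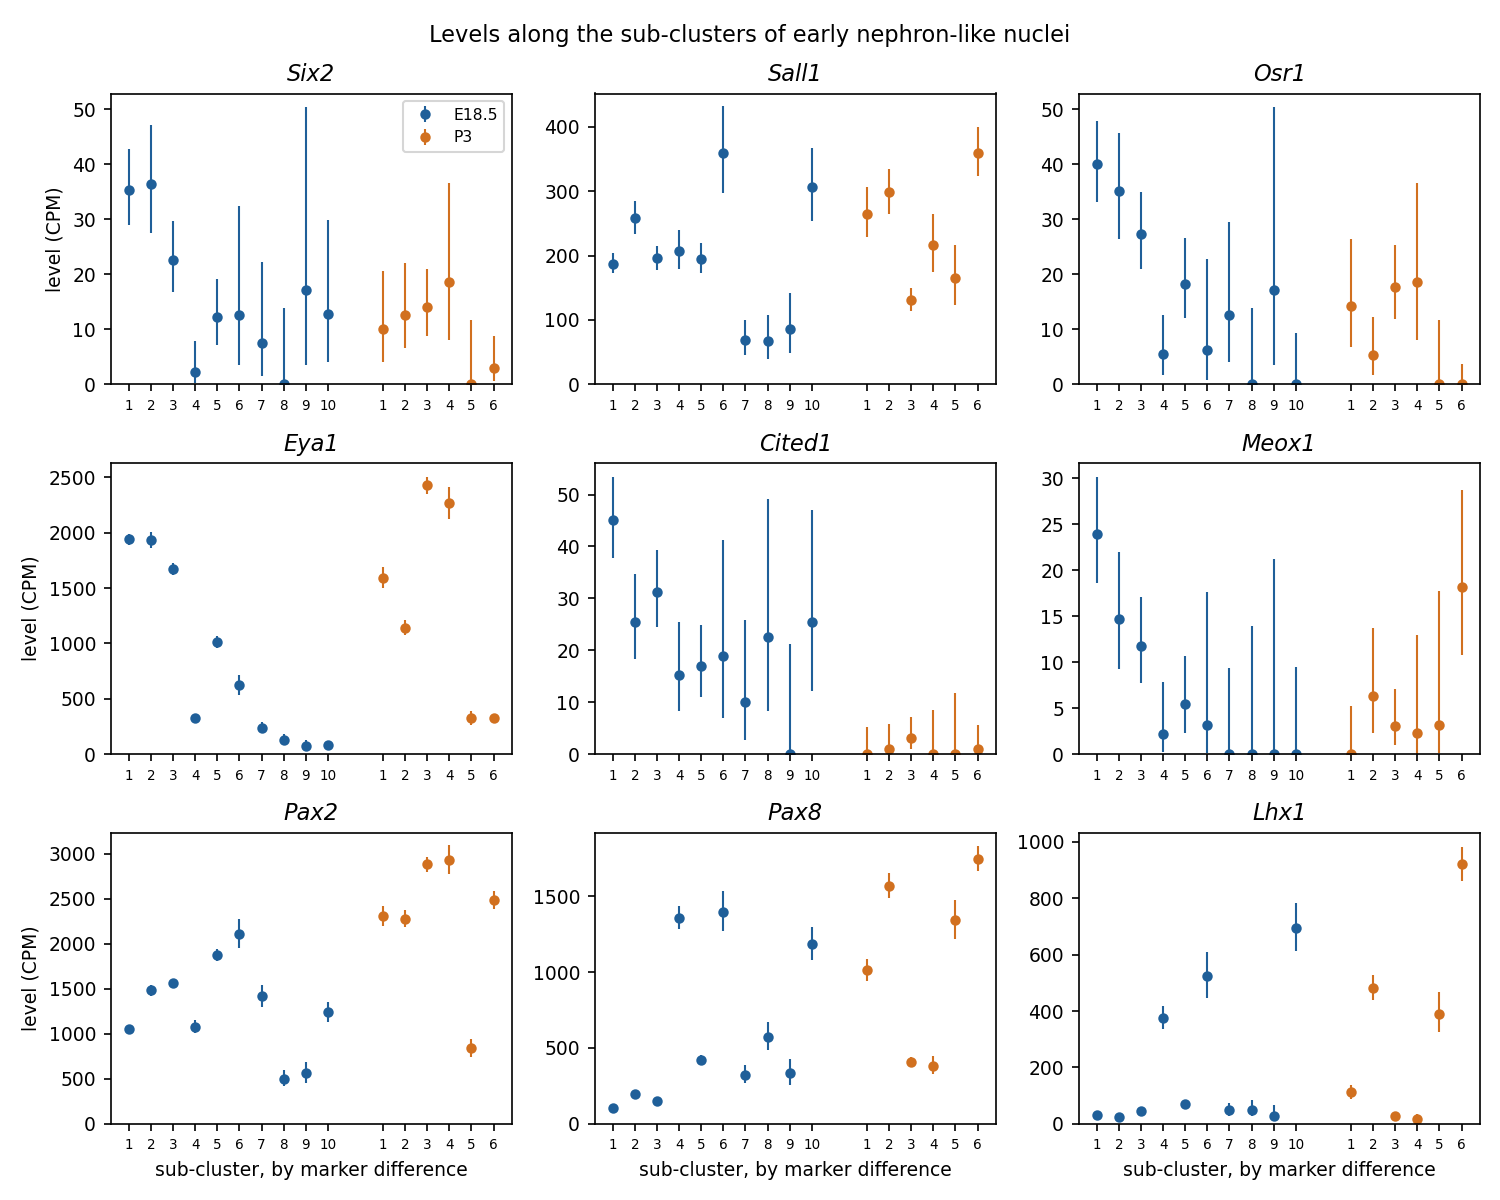
Level of each gene in the sub-clusters of the early nephron-like class at E18.5 and P3, in order of progenitor minus committing markers. A late place can rest on low progenitor markers as well as on high committing markers. Places 1 to 4 at P3 lie close together in this order. At E18.5 Eya1 is at 1942 CPM in place 1 and 79.2 CPM in place 10, and Lhx1 at 29.9 and 694 CPM; bars are 95% Poisson intervals.

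At P3 Eya1 and Pax8 lay apart in some sub-clusters and together in others. Places 3 and 4, with 351 and 66 nuclei, had 2429 and 2267 CPM of Eya1, 407 and 384 CPM of Pax8 and 26.8 and 16.3 CPM of Lhx1. Place 6, with 146 nuclei, had 323 CPM of Eya1, 1746 CPM of Pax8 and 921 CPM of Lhx1, and place 5, with 60 nuclei, had 324, 1343 and 390 CPM. Places 1 and 2, with 144 and 150 nuclei, had both genes high, at 1591 and 1139 CPM of Eya1 and 1012 and 1569 CPM of Pax8. Lhx1 was at 112 and 483 CPM there. The marker differences of places 1 to 4 were close, at -0.570, -0.622, -0.625 and -0.651, so the order among these places carries little weight. The lowest Pax8 level at P3, 384 CPM, was still above the 106 to 194 CPM of the first 3 places at E18.5. For Lhx1 the lowest level at P3, 16.3 CPM in place 4, was under the lowest at E18.5, 24.9 CPM in place 2. Committing markers exceeded progenitor markers in all 6 sub-clusters at P3, unlike in the first 3 of E18.5. Among the progenitor markers Crym (41.2 against 2.79 CPM) and Traf1 (56.5 against 5.57 CPM) were lower over the whole P3 class. A shift of such markers between the libraries cannot be told apart from a difference in the state of the nuclei.

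Meox1 lay differently at the 2 ages. At P3 its highest level was in place 6, the committing end, at 18.2 CPM (10.8 to 28.8) on 18 UMIs, and places 1 to 5 had 13 UMIs together. At E18.5 places 7 to 10, the last in the order, had 0 Meox1 UMIs, with upper limits of 9.33 to 21.2 CPM. Places 7 to 9 came late through low progenitor markers (means of 4.99, 4.76 and 4.76 on the log2 scale). Their committing means of 5.68, 5.46 and 5.62 lay under the 5.78 of place 3.

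Co-detection in single nuclei was counted without the use of sub-clusters. All early nephron-like nuclei were thinned to 1000 UMIs, which kept 3136 at E18.5 and 917 at P3. Of nuclei with an Lhx1 UMI at E18.5, 33.2% (27.1 to 39.7) had an Eya1 UMI, against 63.4% (61.6 to 65.2) of nuclei without Lhx1. The shares at P3 were 34.7% and 69.2%. Nuclei with Lhx1 had Eya1 less often in both libraries, and the intervals did not overlap. Without thinning the shares were 66.7% against 84.6% at E18.5 and 78.1% against 94.6% at P3, so the direction stayed while the shares depended on depth.

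Pax8 and Lhx1 went together. A Pax8 UMI was present in 52.0% (45.3 to 58.6) of Lhx1-positive and 20.3% (18.9 to 21.8) of Lhx1-negative nuclei at E18.5, and in 76.3% and 41.9% at P3. Eya1-positive nuclei had Pax8 in 16.9% (15.3 to 18.7) at E18.5, against 31.6% (29.0 to 34.3) of Eya1-negative nuclei, and in 40.7% against 61.4% at P3. Pax8 and Eya1 were nonetheless found together in 325 nuclei at E18.5 and 234 at P3, so the 2 genes were not exclusive at this depth.

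Six2 was too sparse for most pairs. At E18.5 66 of 3136 thinned nuclei had a Six2 UMI, and 3 of them (4.55%, 0.947 to 12.7) had Lhx1, against 7.36% (6.46 to 8.34) of the rest, a difference that was not detectable at this depth. With doublets removed before clustering the share was 10.1% (4.18 to 19.8) against 7.49%, and without thinning 15.9% against 19.0%, again with overlapping intervals. Pax8 was present in 10.6% (4.37 to 20.6) of Six2-positive and 22.9% (21.4 to 24.4) of Six2-negative nuclei, and these intervals did not overlap. The first share rested on 7 nuclei with both genes. Read the other way, 0.986% (0.397 to 2.02) of Pax8-positive and 2.43% (1.86 to 3.13) of Pax8-negative nuclei had Six2, and those intervals overlapped. This pair was not rerun under other settings. Of the 76 Osr1-positive nuclei at E18.5, 80.3% (69.5 to 88.5) had Eya1, against 60.7% (59.0 to 62.5) of the rest. At P3 the share was 58.3% (27.7 to 84.8) of 12 Osr1-positive nuclei against 62.8% (59.5 to 65.9). The pair Osr1 and Eya1 was not rerun under other settings either. At P3 6 thinned nuclei had Six2 and 0 of them had Lhx1, which allows a share of up to 45.9%. In all, 2 of the 9 genes per nucleus was the most frequent number of genes detected at both ages, in 41.1% of nuclei at E18.5 and 43.6% at P3.

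**Figure D3:**
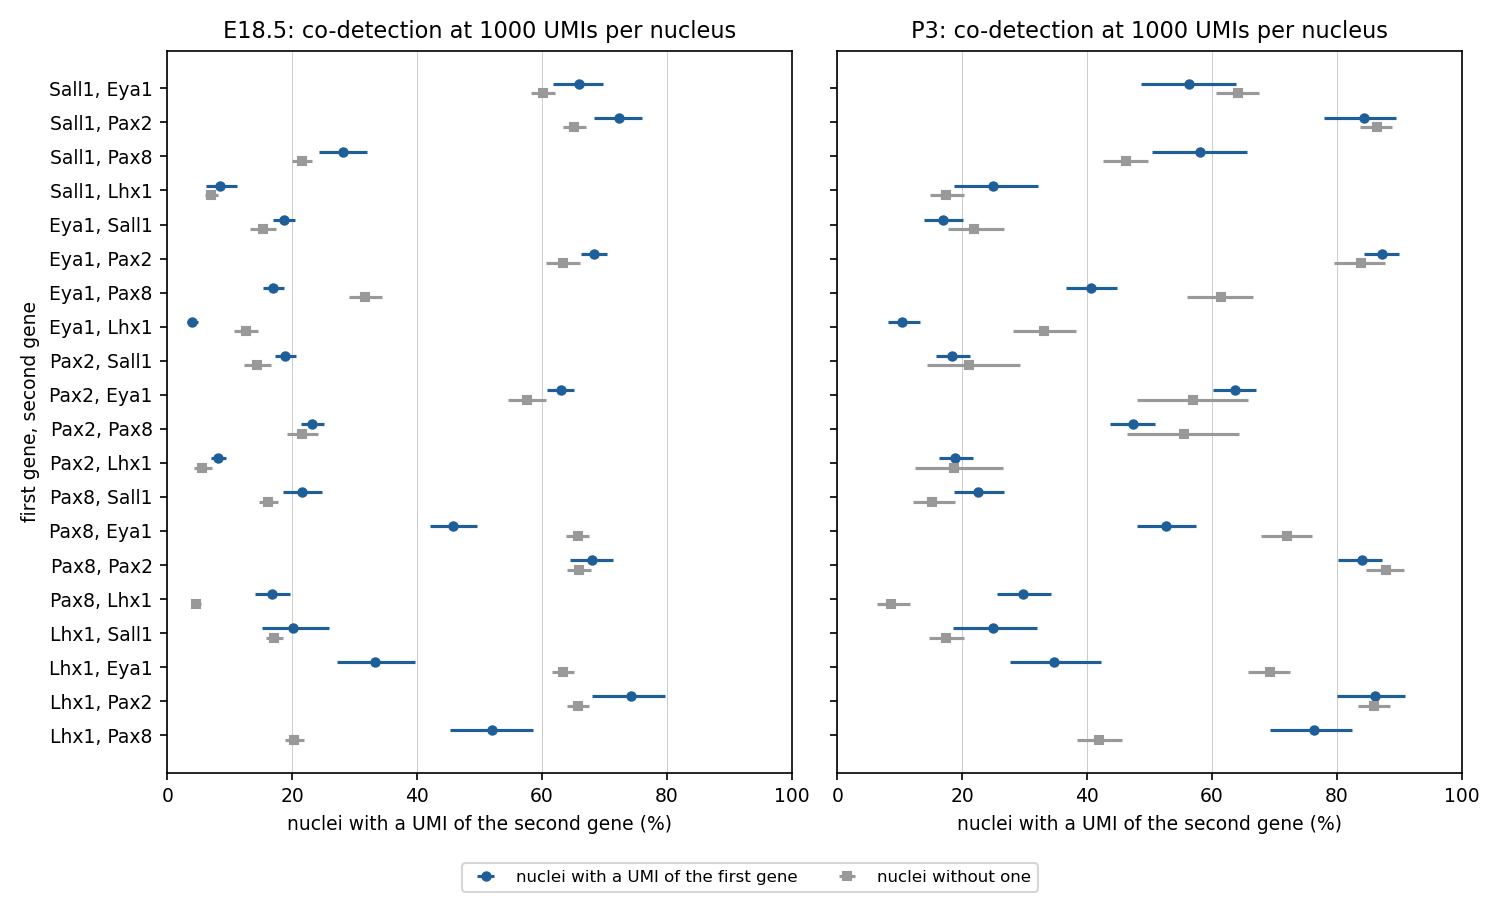
Share of early nephron-like nuclei with a UMI of the second gene of each pair, among nuclei with (circles) and without (squares) a UMI of the first gene, after thinning to 1000 UMIs per nucleus; bars are 95% Clopper-Pearson intervals. The pair Lhx1, Eya1 lies at 33.2% against 63.4% at E18.5, and the pair Lhx1, Pax8 at 52.0% against 20.3%.

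Between the ages the set divided in 3. In early nephron-like nuclei Pax2 was 1.82 times (1.77 to 1.86), Pax8 2.72 times (2.61 to 2.83) and Lhx1 3.01 times (2.79 to 3.25) higher at P3. Six2 was 2.19 times (a ratio of P3 to E18.5 of 0.457, 0.333 to 0.617), Osr1 2.50 times (1.85 to 3.43), Meox1 1.98 times (1.33 to 3.04) and Cited1 20.7 times (9.93 to 51.9) lower. Sall1 and Eya1 were within 1.5 times, at ratios of P3 to E18.5 of 1.16 (1.08 to 1.25) and 1.10 (1.07 to 1.13). In total 7 of 9 genes were at least 1.5 times apart, 3 higher and 4 lower, where 36.6% of all genes with enough UMIs were that far apart, 10.6% higher and 26.0% lower. With 1 library per age these ratios compare 2 libraries and not 2 ages.

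The direction of Cited1 was not particular to the early nephron-like class. Over all nuclei Cited1 went from 20.8 to 0.871 CPM, 23.8 times lower at P3, and the level was lower at P3 in all 13 classes with at least 50 nuclei at both ages, although the interval held 1 in the intercalated-like and urothelium-like classes. Six2 over all nuclei was 4.97 times (4.12 to 6.04) and Osr1 3.82 times (3.23 to 4.54) lower. In endothelium-like nuclei, which should lack it, Six2 was 5.29 times lower (5.24 against 0.990 CPM). Meox1 was lower in early nephron-like nuclei but 2.06 times (1.37 to 3.15) higher in endothelium-like nuclei.

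The ratio between the libraries also varied with the length of a gene. Among protein-coding genes in early nephron-like nuclei its median was 0.595 for gene bodies under 5 kb (Six2 and Cited1), 0.715 for 5 to 10 kb (Lhx1), 0.818 for 10 to 20 kb (Sall1, Osr1 and Meox1), 1.07 for 50 to 100 kb (Pax2 and Pax8) and 1.24 above 100 kb (Eya1). Against genes of like length, Six2 at a ratio of 0.457 lay inside the quartiles, 0.388 and 0.854, and Eya1 at 1.10 did too, between 1.01 and 1.52. Cited1 at 0.0483 lay under the 10th percentile of 0.272, and Osr1 at 0.400 under that of 0.454. Meox1 at 0.504 lay under the lower quartile of 0.620, and Sall1 at 1.16 above the upper quartile of 1.02. Lhx1 at 3.01 lay above the 90th percentile of 1.21, and Pax8 at 2.72 and Pax2 at 1.82 above that of 1.59. After division by the median of like genes 6 of the 9 were at least 1.5 times apart, Six2 no longer among them, an alternative chosen after seeing the data. The share of all genes that far apart after the same division was not counted, so this 6 has no background beside it. The part of length in the other ratios, and in the ratios between ages given below for genes outside the set, was not tested.

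**Figure D4:**
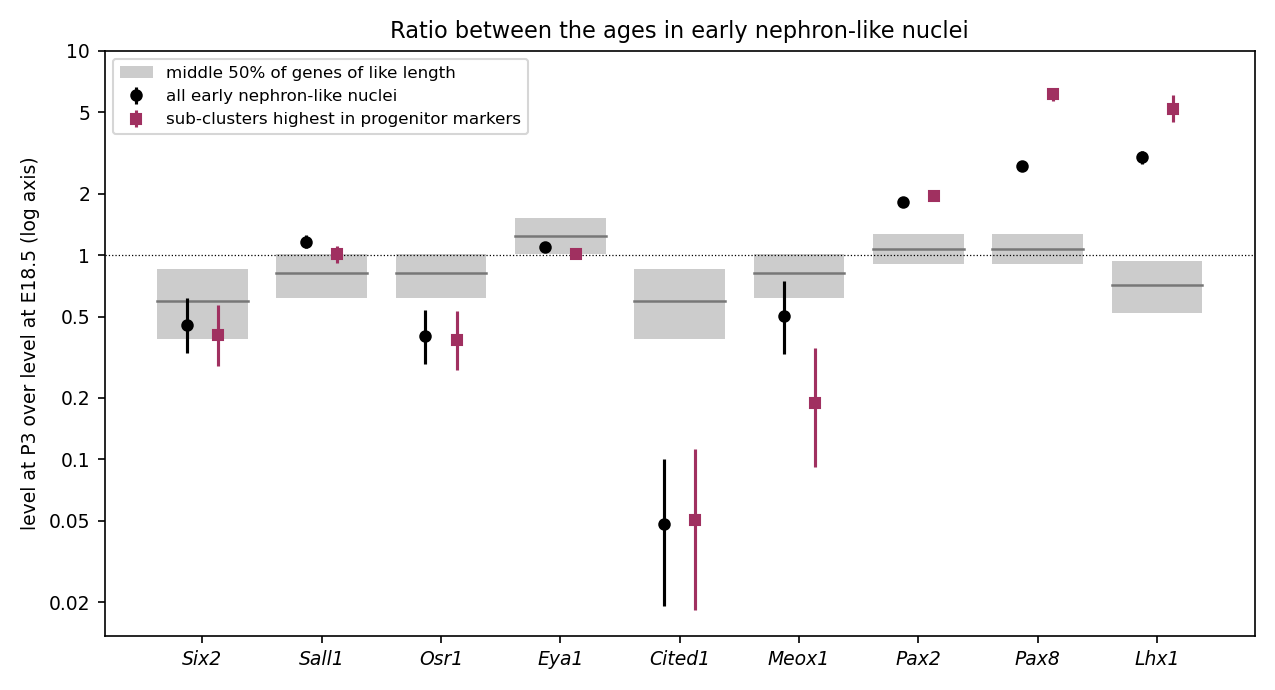
Ratio of the level at P3 to that at E18.5 in early nephron-like nuclei for each gene (log axis), in the whole class and in the sub-clusters highest in progenitor markers, with 95% intervals. Grey boxes span the middle 50% of protein-coding genes of like length and the line in each is their median. Lhx1, Pax8 and Pax2 lie above 1 at 3.01, 2.72 and 1.82, and Cited1 lies lowest at 0.0483.

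Restricting each age to its own sub-clusters with the highest progenitor markers, 2038 nuclei at E18.5 and 645 at P3, did not narrow the differences of Pax8 and Lhx1. Mean progenitor markers (log2 scale) were at 6.01 to 6.36 in those chosen at E18.5 and 5.41 to 5.51 at P3. The choice thus did not match the ages in progenitor markers. Place 4 at P3, left out at 5.37, had the lowest Pax8 and Lhx1 of that age, 384 and 16.3 CPM. Pax8 was at 142 CPM at E18.5 and 870 CPM at P3, 6.12 times (5.69 to 6.59) higher, and Lhx1 at 33.9 and 176 CPM, 5.20 times (4.46 to 6.08) higher. Meox1 was 5.29 times lower in these nuclei, at 17.7 against 3.34 CPM. Eya1 and Sall1 were level in these nuclei at 1.02 (0.986 to 1.05) and 1.01 (0.918 to 1.10). The sub-clusters chosen at P3 included place 2, which had 483 CPM of Lhx1, so they were not free of induced nuclei. Place 3, the largest of them with 351 nuclei, had an Lhx1 level within the range of the sub-clusters chosen at E18.5. The Lhx1 difference was thus not shared by all sub-clusters chosen at P3.

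Antisense and divergent transcripts had the most similar patterns to several genes of the set. Across clusters of at least 50 nuclei (24 at E18.5 and 28 at P3), and with Pearson's r of log2(CPM + 10) as the measure of likeness, the gene most like Pax2 at E18.5 among 16386 was Gm20395, an antisense gene inside it (r = 0.98 at E18.5 and 0.97 at P3). For Pax8 it was Gm13415, which runs opposite to 63.9% of its body (0.99 and 0.98), for Lhx1 it was Lhx1os, which starts 124 bases away on the other strand (0.93 and 0.94), and for Meox1 Gm11551 inside it (0.83 and 0.85). Gm20395 was at 95.2 CPM in early nephron-like nuclei at E18.5 and 110 CPM at P3, Gm13415 at 112 and 178 CPM, and Lhx1os at 43.0 and 109 CPM. How the counting assigned reads where 2 genes overlap on opposite strands was not given in the sources used here, so reads of such pairs are uncertain.

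The remaining genes had other neighbors. Uncx, a homeobox gene and one of the class markers, was most like Sall1 (0.87 and 0.77), and Col9a1, a collagen gene, most like Osr1 (0.90 and 0.74). CJ186046Rik was most like both Six2 (0.81 and 0.74) and Eya1 (0.95 and 0.86). The genes most like Cited1 at E18.5 were Cks1b, Magoh and Serpinh1, with r of 0.90, 0.89 and 0.88, and these were at 0.64, 0.41 and 0.20 at P3. Clusters of 1 library share its depth and free RNA, so these values describe likeness only.

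Some paralogs of the set were high in the same nuclei. Of 25 paralogs, 16 had enough UMIs at E18.5, and 3 of these were at least 2 times higher in early nephron-like nuclei and 3 lower, with a median ratio of 1.25 against 0.990 over all genes. Over all genes 5.14% were that much higher and 3858 of 21420 that much lower. Eya4 was at 1274 CPM against 256 CPM in all other nuclei, 4.98 times (4.87 to 5.09), and at P3 6.63 times (6.44 to 6.82). Meox2 was 4.65 times (4.00 to 5.41) and Eya2 2.46 times (2.29 to 2.64) higher at E18.5. Sall3 was lower, at 1.76 against 12.6 CPM. At P3 5 of 15 were higher and 4 lower, with a median of 1.40 against 0.976, where 9.20% of all genes were higher and 23.8% lower. Meox2, like Meox1, was lower at P3 within the class, at 7.36 against 28.5 CPM, 3.87 times (2.74 to 5.60). In this comparison 3 of 11 paralogs were at least 1.5 times lower and 0 higher (median 0.834 against 0.912 over all genes), where 26.0% of all genes were lower and 10.6% higher, so the count lower was near the background.

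Other regulators of the metanephric mesenchyme, the tissue that progenitors come from, were high in part. At E18.5 4 of 14 were at least 2 times higher in the class and 1 lower (median 1.5), where 5.14% of all genes were higher and 3858 of 21420 lower (median 0.990). At P3 5 were higher and 1 lower (median 1.83), where 9.20% of all genes were higher and 23.8% lower (median 0.976). Wt1, a zinc finger factor of progenitors and podocytes, was at 817 CPM against 277 CPM at E18.5 and 1421 against 218 CPM at P3, ratios of 2.95 (2.87 to 3.02) and 6.51 (6.33 to 6.70). Hoxc10 was 2.61 and 3.78 times and Etv4, a target of Ret and FGF signaling, 2.52 and 3.41 times higher, while Dach2 was 3.72 and 4.83 times lower. Mycn, one of the genes flanked by recombination sites in the E18.5 animals, was 6.29 times (5.41 to 7.30) higher in the class at P3. Between ages 4 of the 14 were at least 1.5 times higher at P3 and 2 lower (median 0.928), where 10.6% of all genes were higher and 26.0% lower (median 0.912).

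Signals and receptors of the progenitor niche gave 4 of 17 higher and 0 lower at E18.5 (median 1.25). There 5.14% of all genes were higher and 3858 of 21420 lower. At P3 4 were higher and 1 lower (median 1.27), where 9.20% of all genes were higher and 23.8% lower. Fgf20, a ligand that progenitors make, was 5.15 times (3.61 to 7.34) higher at E18.5 on 61 UMIs, and the Wnt receptor gene Fzd3 was 2.35 times higher at E18.5 and 3.69 times at P3. Robo2, a receptor for Slit ligands, was at 4911 CPM in early nephron-like nuclei at E18.5 and 909 CPM at P3, 5.40 times lower. Slit2, a ligand of Robo2, went the other way, from 1024 to 1901 CPM. Between ages 5 of 17 were at least 1.5 times higher at P3 and 4 lower, with a median of 1.24 against 0.912 over all genes. Of all genes 10.6% were higher and 26.0% lower, so the count lower was near the background.

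Genes of nephron induction were compared in the same way. In the early nephron-like class 8 of 16 were at least 1.5 times higher at P3 and 3 lower, with a median ratio of 1.59 against 0.912 over all genes, where 10.6% of all genes were higher and 26.0% lower. The committing markers Wnt4 and Jag1 were also higher in the P3 class, at 357 and 220 CPM against 104 and 77.6 CPM, and their part in these counts was not tested. Cdh4, a cadherin of the early nephron epithelium, was at 483 CPM at E18.5 and 1717 CPM at P3, 3.56 times (3.43 to 3.68) higher. Lef1, a Wnt target and effector, was at 78.7 and 218 CPM, and Notch2, the receptor that acts in nephron segmentation, at 220 and 468 CPM. Hes1, a Notch target, was 2.21 times lower. Neither these ratios nor the count of 8 of 16 was set against genes of like length. Against all other nuclei 1 of the 16 was higher and 2 lower at E18.5 (median 1.06). At that age 5.14% of all genes were higher and 3858 of 21420 lower, so the count higher was near the background. At P3 7 were higher and 1 lower (median 1.70), where 9.20% of all genes were higher and 23.8% lower. Among the higher genes of the list were Hey1 at 6.47 times and Ccnd1 at 2.97 times. Emx2 belongs to this list and to the one on the mesenchyme.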

How the data were processed

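Both libraries were droplet single-nucleus RNA libraries, 1 for each age. The values are UMI counts per gene and nucleus, deposited by the authors as filtered matrices. Per the file headers the E18.5 matrix came from Cell Ranger 7.0.0 and the P3 matrix from release 5.0.1. The labels give 5.0.1 with mm10 for both. Whether intronic reads were counted is not given in the sources used here. Nuclei were removed when log UMIs or log genes lay under the median by over 3 median absolute deviations, or the mitochondrial share lay as far over it (and by at least 0.5 percentage points). Doublets called by scrublet in scanpy 1.11.5 (16.6% at E18.5, 17.4% at P3) were kept. Each library was clustered with scran 1.30.0 and bluster 1.12.0 in R 4.3.3 on 2000 variable genes, 50 components and 10 nearest neighbors, without the 9 genes. Genes of the 4 other lists were left out too, except Osr2 and Pou3f3. Those are also naming markers, so their values against other nuclei are not independent of the naming. A cluster was named when at least 3 markers of its class were raised, that is, held at least 10 UMIs and were at least 2 times higher than elsewhere with 10 CPM added. The progenitor and committing markers were joined into 1 class after the clusters were seen. Levels are summed UMIs over the class total, with exact Poisson intervals. Ratios have conditional binomial intervals and shares Clopper-Pearson intervals, all at 95%. With 1 library per age no test between ages was run. Genes named from the 4 other lists and as neighbors followed fixed rules, namely up to 8 per list by size of the ratio and 3 neighbors per gene. The 9 genes and all lists were chosen with earlier results of these data known. The interval for ratios was tested on simulated Poisson counts. These held no variation between nuclei, animals or libraries, so the test covers neither such variation nor the clustering and naming.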

Additional observations from a re-analysis of the deposited data

How the results depend on the processing

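No paired analysis was possible because each age had 1 library. The alternatives numbered 33 planned and 8 added after seeing the data, with the same few settings recurring across results. Of 36 values that answer a comparison, 29 stayed within their limits and 7 moved. Counts of genes passed when within 1.5 times of the main count, and changes of direction were not scored. The early nephron-like share of nuclei at E18.5 was 17.4% with doublets removed before clustering, 15.3% with Leiden clustering, 14.2% with 20 nearest neighbors and 14.1% without quality limits. At P3 it was 8.58% with doublets removed and 7.14% with 20 neighbors. The share of Six2-positive nuclei with an Lhx1 UMI at E18.5 was 15.9% without thinning, where more UMIs per nucleus were counted. Its direction against Six2-negative nuclei changed with doublets removed before clustering, from 4.55% against 7.36% to 10.1% against 7.49%. At P3 it went from 0% of 6 nuclei against 19.0% to 22.2% of 9 nuclei against 15.5%. The intervals overlapped in each case. The number of the 9 genes highest in the class ranged from 5 to 7 at each age. At E18.5 Osr1 and Cited1 were highest elsewhere with 20 neighbors, Sall1 without quality limits and Meox1 with the mean of per-nucleus CPM. At P3 Lhx1 was highest elsewhere with 20 neighbors and with doublets removed. When only the upper sub-clusters were used, the rest of the early nephron-like class competed as its own class. Pax2 at E18.5 and Sall1, Pax8 and Lhx1 at P3 then lost first place. Pax2 in the upper sub-clusters (1322 CPM) still exceeded collecting duct-like nuclei (944 CPM). At P3 Sall1 (208 CPM) and Pax8 (870 CPM) exceeded distal nephron precursor-like nuclei (145 and 723 CPM), while Lhx1 (176 CPM) did not (224 CPM). The number at least 1.5 times apart between ages was 7, and 6 with 10 CPM added. At a fold of 2 it was 5. The share of all genes under these settings was not counted. Of 120 single values 72 stayed within their limits and 48 moved. Depth limits Six2, Osr1, Meox1 and, at P3, Cited1, which had at most 53 UMIs each in the P3 class.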

Other observations

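Some of the 9 genes were also high in clusters that could not be named, and those given here were picked after their values were seen. At E18.5 a cluster of 24 nuclei led by Ctnna2, Syt1 and Snap25, genes known from neurons, had 1195 CPM of Eya1 (1011 to 1403) and 48.1 CPM of Pax2. An unnamed E18.5 cluster of 2924 nuclei, with a median of 1258 UMIs and raised hemoglobin transcripts, had 56.3 CPM of Cited1 (49.3 to 64.1), above the 28.8 CPM of the early nephron-like class. At P3 an unnamed cluster of 234 nuclei led by Grid1, Cdh6 and Lama1 had 210 CPM of Lhx1 and 624 CPM of Pax8, with 66.4 CPM of Eya1.

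At P3 a cluster of 56 nuclei, of which 98.2% were called doublets, had 805 CPM of Eya1 and 1563 CPM of Pax2.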
